A study of Homo sapiens with 2 samples.

Results

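The autophagy genes examined here were 37 genes of the core machinery, its ATG8 proteins and its cargo receptors. They were chosen by symbol, with earlier results of these data known. All 37 were found among the 13137 genes of the deposited table, 36 under their own symbol and ATG101 under its older name, C12orf44, by Entrez Gene ID. The tags came from 2 libraries of A549, a human lung adenocarcinoma cell line. In the library labelled shRNA-SOX2 the cells carried a hairpin against SOX2, and in shRNA-Con they carried a scrambled hairpin. In both, the hairpin was expressed from the H1TetO promoter of a lentivirus in a puromycin-selected polyclonal line, and both lines had been kept in doxycycline for 4 days before RNA was taken.

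With 1 library per group there was no replicate check. Each gene's tags were compared with the remaining gene tags by Fisher's exact test (two-sided), adjusted over all 13137 genes at a false discovery rate (FDR) of 0.001, and a gene past it is called. Such a call compares these libraries, not the conditions, and every interval below is a 95% Clopper-Pearson interval that covers counting error only. The library labelled shRNA-SOX2 held 2093816 gene tags and shRNA-Con 2304184. The value columns are named SC and S1. SC was read as shRNA-Con, and S1 by elimination as the library labelled shRNA-SOX2, so every direction below rests on that reading. SOX2 itself had 16 shRNA-Con tags against 23 in the library labelled shRNA-SOX2 (ratio 1.58, interval 0.80 to 3.20), so a lower SOX2 mRNA level was not seen at this depth. All 6 epithelial markers looked for had tags, and 3 of 6 markers of other cell types did. The keratins differed between the libraries in both directions: KRT8 had 7702 shRNA-Con tags and 12729 in the other library and KRT19 had 35 and 127, while KRT18 had 10318 and 7887 and KRT7 had 3899 and 1606. CDH1 had 50 in each library, and EPCAM had 8 and 4. The leukocyte marker PTPRC had 2 tags in each library and the endothelial PECAM1 had 3 and 0, while the fibroblast collagen COL1A1 had 44 and 43. The ratio of a gene is its share of all gene tags, that of the library labelled shRNA-SOX2 over that of shRNA-Con, and fold changes are the log2 of that ratio with counts below 3 tags set to 3. Where a pair of tag counts is given, shRNA-Con comes first.

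Autophagy encloses cytoplasm in a double membrane, the autophagosome, and delivers it to the lysosome. The ULK kinase complex starts the process, and a lipid kinase complex around PIK3C3 and BECN1 marks the site with phosphatidylinositol 3-phosphate. WIPI proteins bind that mark, and ATG2 proteins feed lipid into the growing membrane. Ubiquitin-like conjugation enzymes then attach the ATG8 proteins, LC3 and GABARAP, to the membrane, where receptors such as SQSTM1 tether their cargo.

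Of the 37 genes, 6 were called higher in the library labelled shRNA-SOX2 (16.2%, against 9.53% of all genes) and 7 were called lower (18.9%, against 12.2%). Among genes that reached 20 tags over both libraries, which all but ATG4D had, the shares were 16.7% higher (all genes 12.2%) and 19.4% lower (all genes 15.8%). The higher genes were ATG2A, GABARAPL2, ATG13, GABARAPL1, WIPI2 and VMP1. The lower genes were ATG12, ATG5, ATG101, ATG16L1, MAP1LC3B, SQSTM1 and GABARAP. A log2 fold change of at least 1 was reached by 5 of 36 genes upward and 5 of 36 downward (13.9% each), against 10.4% and 13% of the 10045 genes with that many tags. The median log2 fold change of the 36 genes was -0.16 (quartiles -0.59 and 0.54), and that of all genes was -0.10 (quartiles -0.62 and 0.44). At the same depth the shares of called genes lay a few percentage points above those of the table in both directions, and nothing about the list is read from them. With an assumed coefficient of variation of 0.2 between cultures, which these data cannot supply, edgeR called ATG2A alone among the members. Over all 13137 genes it then called 65 higher and 48 lower. When the libraries were scaled to all clean tags, which moves the median of all genes to -0.22, 5 members were called higher and 9 lower, and the share of lower calls among all calls of the table went from 56.1% to 66.6%. With TMM factors that share was 49.4% and with the median ratio 49.7%, so that higher calls of the table then slightly outnumbered lower ones, and 6 members were called in each direction under both.

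**Figure D1:**
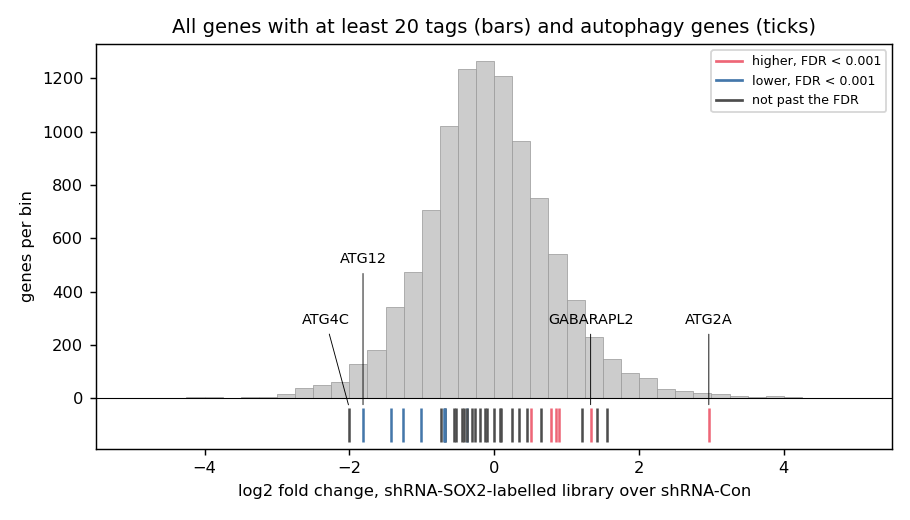
Distribution of the log2 fold change (library labelled shRNA-SOX2 over shRNA-Con, horizontal axis) over the 10045 genes with at least 20 tags, as genes per bin (vertical axis), with each of 36 autophagy genes as a tick beneath, coloured by its call. The ticks spread over most of the range of the bars, from ATG4C at -2.00 to ATG2A at 2.96.

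Calls fell on the steps of the pathway as follows. Of 7 genes of membrane growth 3 were higher and 0 lower, while of 6 conjugation genes 0 were higher and 3 lower, against 12.2% higher and 15.8% lower among all genes of at least 20 tags. Initiation had 1 higher and 1 lower of 5 genes, the ATG8 family 2 and 2 of 5, and the receptors 0 and 1 of 4. Lipid kinase genes, proteases and the nuclear cofactor had 0 and 0. Membrane growth and conjugation, with the most higher and the most lower calls, were set side by side with their calls known. The tags of the membrane growth genes summed to 832 for shRNA-Con and 1178 for the library labelled shRNA-SOX2 (ratio 1.56, interval 1.42 to 1.70), and VMP1 gave 519 and 668 of them. Those of the conjugation genes summed to 634 and 322 (ratio 0.559, interval 0.487 to 0.640). The groups were formed by role, with earlier results of these data known, and no difference between groups was tested. In bulk RNA, fewer cells that express a gene and less of its mRNA per cell cannot be told apart.

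**Figure D2:**
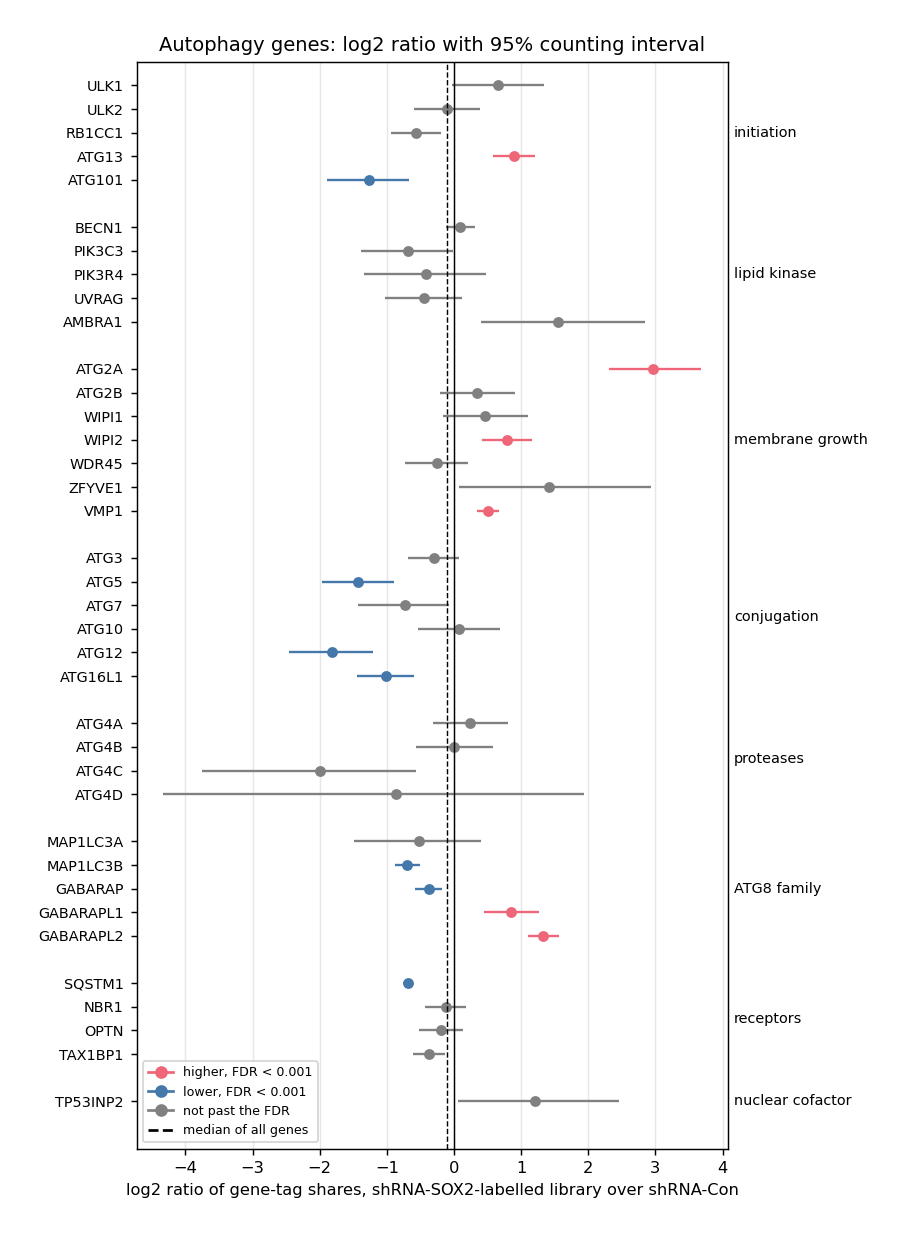
Log2 ratio of gene-tag shares for each of the 37 genes (horizontal axis) by role (right), as points with 95% counting intervals, with no floor on the counts, red for higher and blue for lower past FDR 0.001. The red points lie among membrane growth, ATG8 and initiation genes, and the conjugation genes hold blue and grey points only.

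Within membrane growth, ATG2A had 22 shRNA-Con tags against 156 in the library labelled shRNA-SOX2. ATG2A encodes a lipid transfer protein that bridges the endoplasmic reticulum and the growing membrane. Its ratio was 7.80 (interval 4.98 to 12.8), equal to 2.96 on the log2 scale (adjusted p = 1.4e-27, Fisher's exact test), which put it at position 43 from the top among the 10045 genes with at least 20 tags. Its paralog ATG2B had 52 and 60 tags (ratio 1.27, interval 0.861 to 1.88) and was not called, and the intervals of the paralogs did not overlap. WIPI2, which binds phosphatidylinositol 3-phosphate and recruits ATG16L1, had 101 and 158 tags (log2 fold change 0.78, adjusted p = 9.45e-05, Fisher's exact test). With clean tags the same gene missed the threshold (adjusted p = 0.00103, Fisher's exact test). WIPI1, a relative of WIPI2, had 40 and 50 tags (log2 fold change 0.46) and WDR45, also of that family, had 91 and 69 (-0.26); neither was called. VMP1, a scramblase of the endoplasmic reticulum, had 519 and 668 tags (log2 fold change 0.50, adjusted p = 2.45e-08, Fisher's exact test). The microRNA gene MIR21 lies within VMP1 in the annotation, and tags of a shared transcript could not be told apart. ZFYVE1, which marks the membrane sites where autophagosomes form, had only 7 and 17 tags, a ratio of 2.67 with an interval of 1.05 to 7.62.

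The region before the annotated start is shown for ATG2A and GABARAPL2, the called genes with the highest ratios, and then for the genes whose window held a searched motif. Windows were found for 33 of the 37 genes in the RefSeq promoter table, as 250 bases before and 50 after the start farthest upstream (GRCh38.p14), and the 4 without one were RB1CC1, UVRAG, ATG4D and MAP1LC3A. The 250 bases are printed 5′ to 3′ on the gene's strand. The letters searched on both strands were CACGTG and the longer GTCACGTG, which contains it (sites of the TFEB family), TGATGNAAT (ATF4), TGACNNNGC (NRF2), GTAAACA (FOXO) and CATTGT (SOX factors). The 250 bases of ATG2A (chr11:64917210-64917459, minus strand) and GABARAPL2 (chr16:75566129-75566378, plus strand) held none of them, and all their letters are in lower case.
ATG2A: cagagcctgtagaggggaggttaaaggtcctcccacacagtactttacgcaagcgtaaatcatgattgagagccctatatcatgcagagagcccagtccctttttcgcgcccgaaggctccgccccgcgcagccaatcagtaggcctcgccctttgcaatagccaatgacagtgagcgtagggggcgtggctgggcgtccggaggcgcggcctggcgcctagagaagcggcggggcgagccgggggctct
GABARAPL2: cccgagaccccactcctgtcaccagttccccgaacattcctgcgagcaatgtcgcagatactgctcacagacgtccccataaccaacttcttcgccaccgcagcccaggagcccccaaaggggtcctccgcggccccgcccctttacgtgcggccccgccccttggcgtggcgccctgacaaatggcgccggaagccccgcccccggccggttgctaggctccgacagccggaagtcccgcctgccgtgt

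CACGTG and GTCACGTG were found in 1 of the 33 windows, that of ATG3, against 10.1% and 4.41% of the windows of 10533 genes of the table. TGACNNNGC was found in 2, those of ATG101 and MAP1LC3B (6.06%, against 15% of all), and CATTGT in 1, that of ATG4C (3.03%, against 6.08%). TGATGNAAT and GTAAACA were in 0 of 33 windows, and in 0.465% and 2.47% of all windows. Motifs are in capitals, on either strand, in MAP1LC3B (chr16:87392086-87392335, plus strand), ATG101 (chr12:52069728-52069977, plus strand), ATG3 (chr3:112561963-112562212, minus strand) and ATG4C (chr1:62783882-62784131, plus strand).
MAP1LC3B: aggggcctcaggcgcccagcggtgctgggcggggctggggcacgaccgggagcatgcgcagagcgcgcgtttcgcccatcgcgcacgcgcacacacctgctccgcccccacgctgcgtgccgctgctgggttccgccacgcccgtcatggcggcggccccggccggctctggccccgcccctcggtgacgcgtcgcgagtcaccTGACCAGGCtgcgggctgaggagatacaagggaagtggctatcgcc
ATG101: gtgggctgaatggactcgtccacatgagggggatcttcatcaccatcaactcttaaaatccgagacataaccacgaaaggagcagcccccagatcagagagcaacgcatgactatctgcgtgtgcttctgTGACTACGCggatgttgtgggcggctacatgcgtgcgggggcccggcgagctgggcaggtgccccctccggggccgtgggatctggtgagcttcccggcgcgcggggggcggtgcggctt
ATG3: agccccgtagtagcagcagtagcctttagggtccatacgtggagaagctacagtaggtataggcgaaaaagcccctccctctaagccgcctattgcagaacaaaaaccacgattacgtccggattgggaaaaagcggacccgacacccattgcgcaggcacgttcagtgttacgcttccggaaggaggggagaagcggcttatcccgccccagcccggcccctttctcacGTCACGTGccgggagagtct
ATG4C: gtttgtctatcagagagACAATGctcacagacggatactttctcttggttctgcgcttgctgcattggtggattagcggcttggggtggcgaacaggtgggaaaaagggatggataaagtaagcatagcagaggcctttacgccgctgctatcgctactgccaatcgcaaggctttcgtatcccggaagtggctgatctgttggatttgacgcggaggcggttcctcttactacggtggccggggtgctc

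These matches describe letters in a window. Of the 4 genes with a match, MAP1LC3B and ATG101 were called lower, and ATG3 and ATG4C were not called.

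The conjugation genes were the group with most lower calls. ATG12, a ubiquitin-like protein that is joined to ATG5, had 112 shRNA-Con tags against 29 in the library labelled shRNA-SOX2 (ratio 0.285, interval 0.183 to 0.432; log2 fold change -1.81, adjusted p = 5.86e-10, Fisher's exact test). ATG5, its partner in the conjugate, had 121 and 41 tags (ratio 0.373, interval 0.255 to 0.535; log2 fold change -1.42, adjusted p = 8.22e-08, Fisher's exact test). ATG16L1, which binds the ATG12-ATG5 conjugate and places it on the membrane, had 153 and 69 tags (log2 fold change -1.01, adjusted p = 5.43e-06, Fisher's exact test). All 3 subunits of this one complex, which acts as the ligase for ATG8 proteins, therefore had fewer tags. ATG7, the activating enzyme for ATG12 and the ATG8 proteins, had 55 and 30 tags (log2 fold change -0.74, adjusted p = 0.0728, Fisher's exact test). ATG3, which transfers ATG8 proteins to lipid, had 144 and 106 (-0.30), and ATG10, which transfers ATG12 to ATG5, had 49 and 47 (0.08); none of these 3 enzymes was called.

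Of the 5 genes of the ATG8 family 2 were higher and 2 lower, against 12.2% and 15.8% of all genes with at least 20 tags. The family's sum differed by less than counting error, with 1518 tags for shRNA-Con and 1419 for the other library (ratio 1.03, interval 0.956 to 1.11). ATG8 proteins are fixed to lipid of the autophagosome membrane. MAP1LC3B, the LC3 form most used as an autophagy marker, had 655 shRNA-Con tags against 368 in the library labelled shRNA-SOX2 (log2 change -0.69, adjusted p = 1.15e-12, Fisher's exact test). GABARAP had 519 and 363 (log2 fold change -0.38, adjusted p = 0.000657, Fisher's exact test), and with TMM factors, which scale the libraries by the bulk of their genes, it missed the threshold (adjusted p = 0.00769, Fisher's exact test). GABARAPL2, also known as GATE-16, had 233 and 533 tags (ratio 2.52, interval 2.15 to 2.95; log2 fold change 1.33, adjusted p = 5.13e-33, Fisher's exact test). GABARAPL1 had 84 and 138 tags (log2 fold change 0.85, adjusted p = 8.9e-05, Fisher's exact test). MAP1LC3A had 27 and 17 tags (ratio 0.693, interval 0.354 to 1.32) and was not called.

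The makeup of the family within each library does not depend on how the libraries are scaled. GABARAPL2 made 15.3% of the ATG8-family tags in shRNA-Con (interval 13.6% to 17.3%) and 37.6% in the library labelled shRNA-SOX2 (35.0% to 40.1%). MAP1LC3B made 43.1% (40.6% to 45.7%) and 25.9% (23.7% to 28.3%). MAP1LC3B thus had the most tags of the family in shRNA-Con, and GABARAPL2 in the other library. GABARAP went from 34.2% (31.8% to 36.6%) to 25.6% (23.3% to 27.9%) and GABARAPL1 from 5.53% (4.44% to 6.81%) to 9.73% (8.23% to 11.4%). For these 4 genes the intervals did not overlap, and how often this holds in other gene families was not counted. The shares of a family are tied to each other, so more GABARAPL2 tags alone lower the shares of MAP1LC3B and GABARAP. The shares are of tags and were not divided by transcript length. Among the conjugation genes, ATG12 made 17.7% of the group's tags in shRNA-Con (14.8% to 20.9%) and 9.01% in the other library (6.11% to 12.7%), ATG10 went from 7.73% (5.77% to 10.1%) to 14.6% (10.9% to 18.9%), and ATG3 from 22.7% (19.5% to 26.2%) to 32.9% (27.8% to 38.3%). The group's tags summed to 634 and 322, and the larger shares of ATG10 (49 and 47 tags) and ATG3 (144 and 106) came without more tags. For ATG5, ATG7 and ATG16L1 the intervals overlapped.

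**Figure D3:**
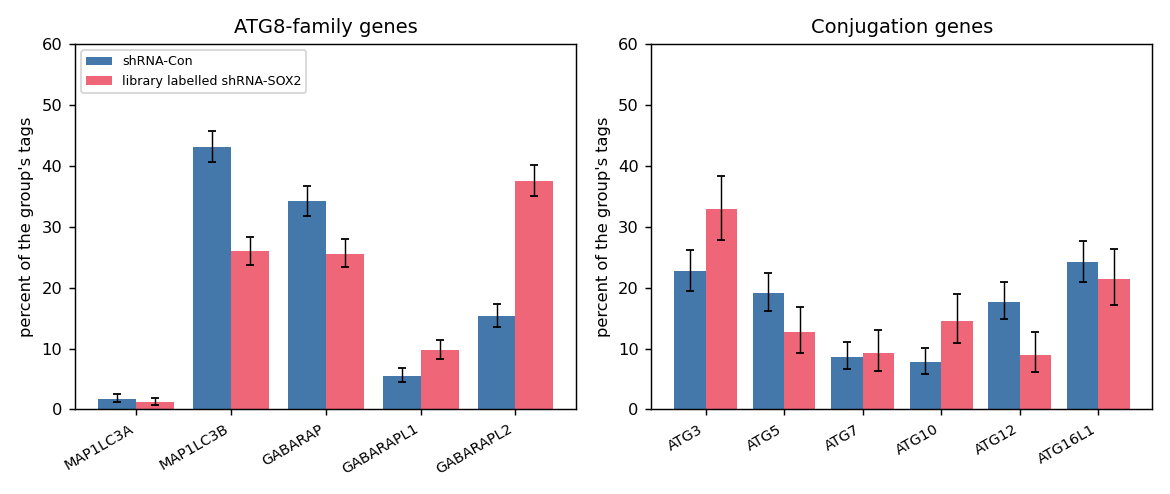
Share of the ATG8-family tags (left) and of the conjugation-gene tags (right) that each gene made in shRNA-Con (blue) and in the library labelled shRNA-SOX2 (red), in percent with 95% Clopper-Pearson intervals. GABARAPL2 stands at 15.3% and 37.6%, and MAP1LC3B at 43.1% and 25.9%.

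ATG8 precursors are cut, and later freed from the membrane, by the ATG4 proteases. ATG4B, with the broadest activity of them, had 56 shRNA-Con tags against 51 in the library labelled shRNA-SOX2 (ratio 1.0, interval 0.672 to 1.49). ATG4A had 54 and 58 tags (ratio 1.18, interval 0.802 to 1.75). With 22 and 5 tags, ATG4C had a log2 change of -2.00 that missed the threshold (adjusted p = 0.0104, Fisher's exact test). Its ratio was 0.250 with an interval of 0.0740 to 0.677. ATG4D had 4 and 2 tags (ratio 0.550, interval 0.0498 to 3.84), so a difference could not be detected at this depth. No ATG4 gene (0 of 4) was called (all genes 9.53% higher and 12.2% lower, those with at least 20 tags 12.2% and 15.8%).

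The cargo receptors were led in tags by SQSTM1. SQSTM1, or p62, binds ubiquitinated cargo and ATG8 proteins, and is itself degraded by autophagy as a protein. It had 3459 shRNA-Con tags against 1954 in the library labelled shRNA-SOX2 (ratio 0.622, interval 0.588 to 0.657; log2 fold change -0.69, adjusted p = 1.65e-63, Fisher's exact test). SQSTM1 made 82.7% of the receptor tags in shRNA-Con (81.5% to 83.8%) and 78.0% in the other library (76.3% to 79.6%). TAX1BP1, a ubiquitin-binding receptor, had 347 and 243 tags (log2 fold change -0.38, adjusted p = 0.00711, Fisher's exact test), and with clean tags it was past the threshold (adjusted p = 0.000264, Fisher's exact test). OPTN, a receptor for mitochondria and bacteria, had 181 and 144 tags (ratio 0.876, interval 0.698 to 1.10), and NBR1, a relative of SQSTM1, had 197 and 164 (ratio 0.916, interval 0.740 to 1.13); neither was called.

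In the initiation complex, ATG13 and ATG101, which bind each other, were called in opposite directions. ATG13 had 133 shRNA-Con tags against 224 in the library labelled shRNA-SOX2 (log2 change 0.89, adjusted p = 1.08e-07, Fisher's exact test). ATG101 had 87 and 33 (ratio 0.417, interval 0.271 to 0.630; log2 fold change -1.26, adjusted p = 5.44e-05, Fisher's exact test). The kinase ULK1 had 33 and 47 tags (log2 fold change 0.65, adjusted p = 0.123, Fisher's exact test) and ULK2 had 78 and 66 (-0.10). RB1CC1, the scaffold also called FIP200, had 164 and 101 tags (log2 fold change -0.56, adjusted p = 0.00741, Fisher's exact test), and with clean tags it was past the threshold (adjusted p = 0.000947, Fisher's exact test). The tags of the 5 genes summed to 495 and 471 (ratio 1.05, interval 0.921 to 1.19).

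No gene of the lipid kinase group (0 of 5) was called, against 12.2% higher and 15.8% lower among all genes with at least 20 tags. BECN1, the regulatory subunit at its core, had 380 shRNA-Con tags against 369 in the library labelled shRNA-SOX2 (ratio 1.07, interval 0.923 to 1.24), which limits a difference to less than is seen for ATG2A, GABARAPL2 or ATG12. PIK3C3, the catalytic subunit, had 53 and 30 tags (ratio 0.623, interval 0.384 to 0.993), and its scaffold PIK3R4 had 28 and 19 (ratio 0.747, interval 0.394 to 1.39). UVRAG, a BECN1 partner, had 66 and 44 tags (ratio 0.734, interval 0.489 to 1.09). AMBRA1, which regulates BECN1 and ULK1, had 9 and 24 tags (log2 fold change 1.55, adjusted p = 0.0151, Fisher's exact test). TP53INP2, a nuclear protein that also binds ATG8 proteins, had 10 and 21 tags (ratio 2.31, interval 1.04 to 5.50). AMBRA1, TP53INP2 and ZFYVE1 exceeded a log2 fold change of 1 on at most 33 tags each and were not called.

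**Figure D4:**
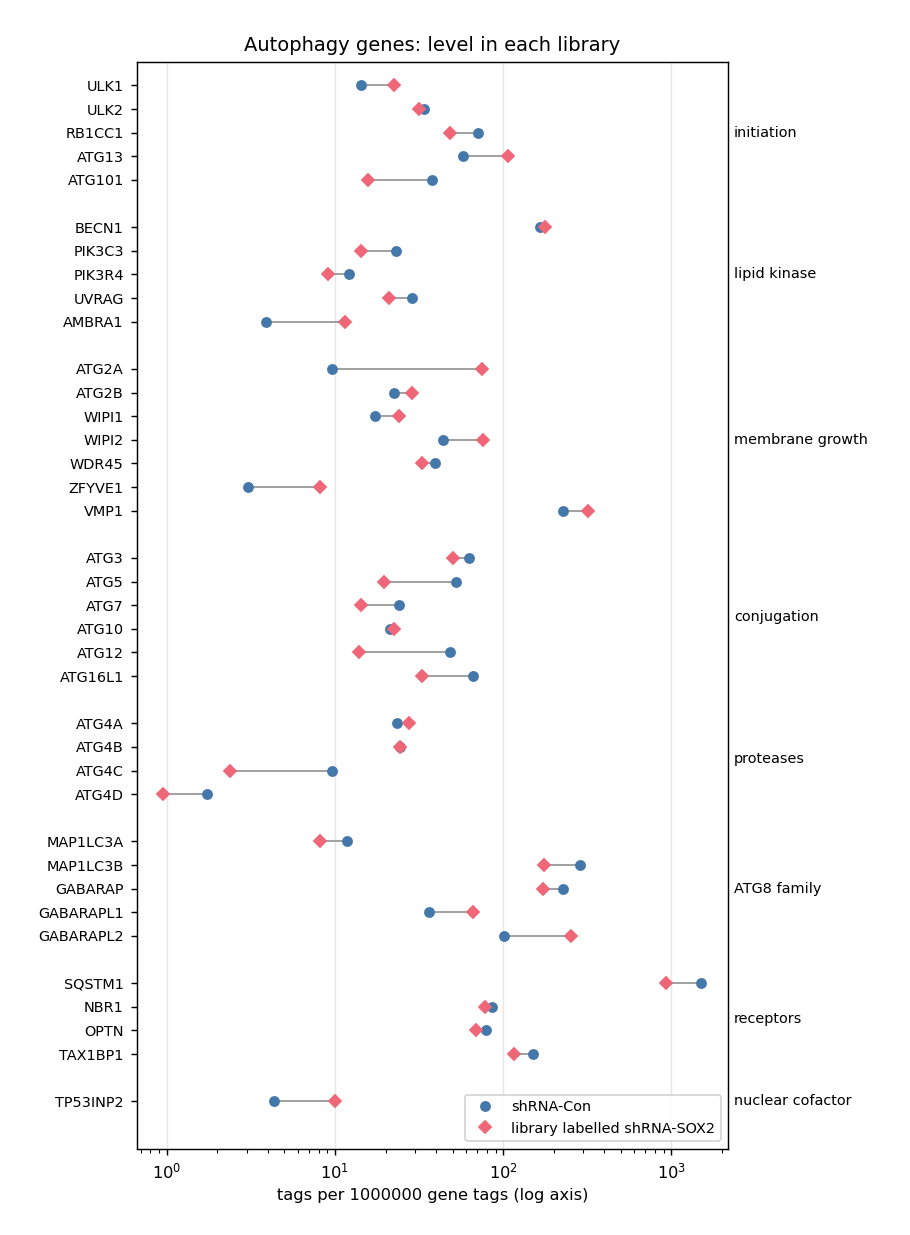
Level of each of the 37 genes in shRNA-Con (blue circles) and in the library labelled shRNA-SOX2 (red diamonds), in tags per 1000000 gene tags on a log axis, ordered by role. The values are not divided by transcript length; SQSTM1 had 1501 and 933, and the gap between the symbols is widest for ATG2A (9.55 and 74.5).

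In the GENCODE release 29 annotation 19 of the 37 genes overlap another coding gene, among them 7 of the 13 called, and whether the tags were counted by strand is not given in the sources used here. AP3S1, which overlaps ATG12 on the other strand, had 271 and 258 tags, and PRDM1, opposite ATG5, had 15 and 16. FBXO31, opposite MAP1LC3B, had 29 tags in each library. Opposite SQSTM1, MGAT4B had 417 and 554 tags, the reverse direction (log2 fold change 0.55, adjusted p = 4.51e-08, Fisher's exact test), and MRNIP had 83 and 61. PTRH2, opposite VMP1, had 62 and 42 tags, and HARBI1, opposite ATG13, had 4 and 10. GABARAP overlaps AC120057.2 on its own strand, which counting by strand would not separate. Some members that were not called lie opposite a called gene. PSME3, opposite BECN1, had 559 and 927 tags, and GSKIP, opposite ATG2B, had 110 and 170, both called higher. RPS23, opposite ATG10, had 10023 and 6020 tags, and THAP4, opposite ATG4B, had 240 and 130, both called lower. Other partners of uncalled members that had a value were not called. The part of these overlaps in the members' values was not tested. Pseudogenes or near-identical copies are annotated for 8 of the genes, among them MAP1LC3B2 for MAP1LC3B and GABARAPL3 for GABARAPL1, and their part in the values was not tested.

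Outside these 37 genes, 5 further lists of autophagy genes held 76 genes with a value, of which 12 were called higher and 10 lower, with a median log2 fold change of -0.05 over the 68 with at least 20 tags. Of all genes 9.53% were called higher and 12.2% lower. Of those with at least 20 tags 12.2% were higher and 15.8% lower, with a median of -0.10. The counts of the lists below are to be read against both pairs of shares, since most list genes had that many tags. The list of lysosomal signalling and transcription factors had 6 of 16 genes higher and 1 lower (all genes 9.53% and 12.2%, those with at least 20 tags 12.2% and 15.8%). Its median was 0.61 over the 13 genes with at least 20 tags (all genes -0.10). Its calls were led by the Ragulator complex, which anchors mTORC1 to the lysosome. LAMTOR5 had 432 shRNA-Con tags against 1024 in the library labelled shRNA-SOX2 (log2 change 1.38, adjusted p = 9.44e-67, Fisher's exact test), LAMTOR4 had 368 and 775 (1.21), LAMTOR1 had 433 and 613 (0.64) and LAMTOR3 had 153 and 232 (0.74). The table lists LAMTOR5 as HBXIP and LAMTOR4 as C7orf59. RRAGA, a GTPase held by that complex, had 324 and 473 tags (log2 fold change 0.68). LAMTOR2, of the same complex, was called lower, with 116 and 50 tags (log2 fold change -1.08, adjusted p = 3.45e-05, Fisher's exact test); it and the sixth higher gene, RRAGD (27 and 60 tags), were singled out after their values were seen. TFEB, the transcription factor best known for autophagy genes, had 10 and 5 tags, its relative TFE3 had 260 and 204, and neither was called.

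Among 18 upstream regulators, 3 were higher and 2 lower, all 18 having at least 20 tags, where 12.2% of all genes were higher and 15.8% lower. SESN1, an inhibitor of mTORC1, had 23 and 82 tags (log2 fold change 1.97, adjusted p = 2.46e-09, Fisher's exact test), MTOR had 118 and 182 (0.76) and STK11, the kinase upstream of AMPK, had 80 and 128 (0.82). With clean tags STK11 missed the threshold (adjusted p = 0.00253, Fisher's exact test). MLST8, an mTOR subunit, had 257 and 110 tags (log2 fold change -1.09, adjusted p = 9.03e-11, Fisher's exact test), and PRKAG2, of AMPK, had 101 and 45 (-1.03).

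Among 18 other receptors 1 was higher and 5 were lower (all genes 9.53% and 12.2%, those with at least 20 tags 12.2% and 15.8%). CCPG1, a receptor for the endoplasmic reticulum, had 899 and 435 tags (log2 fold change -0.91, adjusted p = 4.55e-27, Fisher's exact test). PHB2, a mitochondrial receptor, had 813 and 422 (-0.81), BNIP3L, another, had 244 and 103 (-1.11), and WDFY3, an adaptor for protein aggregates, had 91 and 31 (-1.42). BCL2L13, a mitochondrial receptor with 61 and 22 tags (-1.33), was the fifth and was named after its value was seen. CALCOCO2, a receptor for bacteria, was the higher one, with 220 and 313 tags (0.65).

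Of 13 fusion genes, RAB7A (366 and 560 tags, log2 fold change 0.75) and FYCO1 (27 and 65 tags, 1.41) were higher and YKT6 (405 and 245 tags, -0.59) was lower. All 13 had at least 20 tags, where 12.2% of all genes were higher and 15.8% lower. RAB7A and FYCO1 act together in moving late endosomes and autophagosomes, and YKT6 is a SNARE of their fusion with lysosomes. Among 11 further genes of the core machinery WDR45B, a WIPI protein listed as WDR45L, was the single call (all genes 9.53% higher and 12.2% lower). It had 409 and 275 tags (log2 fold change -0.43, adjusted p = 0.000531, Fisher's exact test), and with TMM factors it missed the threshold. In the deposited annotation 19 of the 37 genes carry a process term naming autophagy, and 21 other genes do. Of those others, 5 were called higher (HDAC6, CTSD, MTOR, LAMP1 and DRAM1) and 1 lower (NPC1), named here after their values were seen. The shares were 9.53% and 12.2% of all genes, and 12.2% and 15.8% of those with at least 20 tags.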

How the data were processed

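Digital gene expression tags of oligo(dT)-selected mRNA were profiled at the Beijing Genomics Institute and deposited as raw counts per Entrez Gene ID. The submitters' processing notes name the build hg19; the aligner and annotation are not given in the sources used here. The deposited TPM values are tags scaled to clean tags, with 0 tags written as 0.01, and served only to recover the clean tags (3516266 for shRNA-Con, 3456234 for the other library). The authors' own log2 ratio, p-value and FDR columns were not used.

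From the counts, shares of gene tags were compared by Fisher's exact test, with p-values adjusted by the Benjamini-Hochberg method over 13137 genes (Python 3.11.15, scipy 1.17.1), and a count below 3 tags was set to 3 in a log2 fold change. A count of 0 allows a share of up to 0.00013% of gene tags for shRNA-Con and 0.000143% for the other library. Rows with no symbol held at most 0.0535% of the tags. The replicate-based tests of edgeR and DESeq2 could not be fitted with 1 library per group. Scaling by TMM factors (edgeR 4.0.16), the median ratio (DESeq2 1.42.0) and clean tags, tag minimums of 10 and 100, edgeR's exact test (R 4.3.3) at an assumed biological variation (coefficient) of 0.1, 0.2 or 0.4, FDR 0.05 and 0.5 added to each count were alternatives. The steps were tested on simulated data. The members, roles and gene lists were chosen with earlier results of these data known. All members are named, and from each further list up to 5 called genes with the smallest p. Gene overlaps are from GENCODE release 29 (GRCh38), and no coordinates of the table were used.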

Additional observations from a re-analysis of the deposited data

How the results depend on the processing

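The number of members called, 6 higher and 7 lower, stayed within 1.5 times under TMM factors (6 and 6), the median ratio (6 and 6), clean tags (5 and 9), both tag minimums (6 and 7) and FDR 0.05 (7 and 10). Of all 13137 genes, 1252 were called higher and 1597 lower. TMM factors gave 1414 and 1381, the median ratio 1401 and 1385, clean tags 1008 and 2010, and FDR 0.05 gave 2148 and 2754. The minimum of 10 tags gave 1267 and 1632 of 11127 genes, and that of 100 tags 1080 and 1495 of 6237. With an assumed coefficient of variation of 0.1 between cultures 2 members were higher (ATG2A and GABARAPL2) and 2 lower (ATG12 and ATG5), with 0.2 there were 1 (ATG2A) and 0, and with 0.4 there were 0 and 0. Over all 13137 genes the counts were 512 higher and 654 lower with 0.1, 65 and 48 with 0.2, and 0 and 0 with 0.4. No second library says which coefficient applies. A minimum of 100 tags left 25 members, and 2 instead of 5 of them past a log2 fold change of 1 upward, since AMBRA1, ZFYVE1 and TP53INP2 had too few tags to enter. The median log2 fold change lay between -0.27 (clean tags) and -0.09 (TMM factors). Of 56 genes recomputed singly, 0 called genes changed direction. The scalings could not have turned one, because each shifts all log2 fold changes by the same amount, which was smaller than any called change. An assumed variation leaves the fold changes as they are. TMM factors and the median ratio each took 2 calls away (GABARAP and WDR45B). Clean tags took away 2 (WIPI2 and STK11) and added 2 (RB1CC1 and TAX1BP1), and turned the sign of BECN1, ATG10 and ATG4B, which were not called. No paired analysis was possible because each group has 1 library, and no library could be left out. Depth limits genes such as ATG4D, AMBRA1 and ZFYVE1.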
